A study of Rattus norvegicus with 42 samples.

Results

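The comparison described here is the first day of induced culture of rat metanephric mesenchyme against the same tissue taken fresh. It was chosen by sample label: the 6 arrays of mesenchyme cultured for 1 day with LIF, NGAL or ANX, 2 arrays for each inducer, were set against the 2 arrays of freshly dissected mesenchyme, which makes 8 of the 42 arrays of the study. The change of a gene was taken as the mean of the 3 inducer groups minus the fresh mean on the log2 scale, and the 3 inducers were then compared with each other. The fresh group was mesenchyme microdissected from metanephric kidneys of rat embryos at embryonic day 13.5, separated from the ureteric bud with pins after trypsin and DNase, and put directly into RNA isolation (day 0). The induced groups were such mesenchyme grown for 1 day on collagen-coated filters in DMEM/F12 with insulin, transferrin, selenium, dexamethasone, prostaglandin, the thyroid hormone T3, a recombinant FGF and a recombinant TGF, plus 1 inducer. LIF is the cytokine leukaemia inhibitory factor, and NGAL is the siderophore-binding lipocalin that the gene Lcn2 encodes. The labels do not spell out the contents of ANX. A further group of 2 arrays had spent 1 day in the same medium with no inducer. It serves as the reference for what a day of culture did without one, because culture, medium and inducer change together between fresh and induced tissue and cannot be told apart in that comparison. The labels give neither the strain nor the number of embryos behind an array.

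In the embryonic kidney the metanephric mesenchyme holds nephron progenitors, which turn into the epithelium of the nephron, beside stromal, endothelial and blood cells. The inducing signal normally comes from the ureteric bud, largely as Wnt ligands, and the first genes it switches on in the progenitors include the transcription factor gene Pax8 and the Wnt ligand gene Wnt4. LIF acts through gp130 and the transcription factor STAT3, and isolated mesenchyme that receives no inducer dies or stays undifferentiated in culture.

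Signals are deposited microarray intensities, given here as log2 levels; a difference of 1 is a 2-fold change. Levels are comparable between arrays for 1 gene, not between genes. Genes entered the test if the highest of their group means exceeded log2 5.79 (intensity 55.2), the 40th percentile of all values, which left 11388 genes. A level under that threshold is close to background, so where a group lay under it a floored change is also given, with that group set to the threshold. A gene was called at a Benjamini-Hochberg adjusted p under 0.05 in limma. The labels call the arrays of a group biological replicates. The SD of the difference between duplicates was 0.176 in fresh tissue and 0.273 to 0.342 in the induced groups. RNA labelling was read from the dap spike-in, whose 3' over 5' log2 ratio was 1.06 and 1.08 on the fresh arrays and 0.84 to 1.63 on the induced arrays, and the count of called genes was 2096 with that ratio as a covariate. The mesenchyme markers matched the labelled tissue: Eya1, Sall1 and Wt1 stood above log2 10 on all 8 arrays, and Cdh1, the epithelial cadherin gene of the ureteric bud, was under the threshold on all of them. Six2, Osr1 and Foxd1 lacked a probe set annotated to that gene alone and were not used here.

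After 1 day with an inducer, 1668 of 11388 genes differed from fresh mesenchyme. The matrix Gla protein gene Mgp, the calcium-binding protein gene S100a6, the urokinase receptor gene Plaur, interferon-induced genes (Gbp2, Ifitm1, Cxcl10) and nearly the whole cholesterol pathway were higher. Genes of the AP-1 factors Fosb and Fos, embryonic globins, retinoid genes (Dhrs3, Rarb) and the Wnt antagonist gene Sfrp2 were lower. Of 20 nephron progenitor genes 1 (Tmem100) was called higher and 0 lower, too few genes to set the list apart from all genes. The regulators Eya1, Sall1 and Pax2 did not pass the test. In all 961 genes were higher, 8.44% of those tested, and 707 were lower, 6.21%; of these 305 were at least 2-fold higher and 133 at least 2-fold lower. The median change of all genes was -0.01. The 6 induced arrays did not overlap the 2 fresh arrays for 1624 of the called genes, against 34.7% of all genes tested. The size of the count depended on the fresh pair: it was 565 without fresh replicate 1 and 722 without fresh replicate 2, in fits that assume the lone array varies like the other groups. Of the 152 genes named here that were called against fresh, 67 lost the call when one or the other fresh array was left out, and those among the genes described below are marked. Where a call is said to be lost without either fresh array, it was lost in each of the 2 fits that leave 1 of them out. Members named beyond those 152 genes are not marked one by one. Of these, Sox17, Sox18, Slc16a3, Mmp2, Adamts1 and Serpine2 lost their calls without either fresh array.

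The gene that rose most was Mgp, which encodes matrix Gla protein, an inhibitor of calcification. It stood at 6.43 and 6.27 in fresh tissue and at 11.57 to 12.13 (median 11.82) on the 6 induced arrays, a rise of 5.47 (SE 0.45, adjusted p = 9.43e-09, 44.4-fold). All 6 induced arrays lay far above both fresh arrays, and the uninduced arrays, at 10.89 and 10.58, lay between them but close to the induced ones. Plac8, a small cysteine-rich protein gene, went from 4.80 and 5.33 to between 9.06 and 11.19 (median 10.49), a rise of 5.08 (SE 0.65, adjusted p = 4.62e-06, floored 4.36). The NGAL pair, both at 9.06, was its lowest, and the uninduced arrays stood at 7.05 and 6.60. S100a6, a calcium-binding protein gene, went from 5.90 and 6.40 to between 9.71 and 10.88 (median 10.65), a rise of 4.37 (SE 0.49, adjusted p = 7.07e-07). The uninduced arrays were again near, at 9.53 and 9.47, and no induced array reached down to them.

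Gem, a small GTPase gene, was at 4.16 and 4.48 fresh and at 7.14 to 9.40 (median 9.0) induced, a rise of 4.40 (SE 0.37, adjusted p = 1.24e-08, floored 2.93). Hs3st1, a heparan sulfate sulfotransferase gene, rose by 4.10 (SE 0.41, adjusted p = 1.4e-07, floored 3.69), from 5.36 and 5.39 to between 8.21 and 10.62 (median 9.58). The inducers were ordered alike in both genes, with ANX highest and NGAL lowest, but the F-test between inducers called neither. Dkk2, a Wnt modulator gene, rose by 4.03 (SE 0.59, adjusted p = 2.98e-05, floored 2.55), and its uninduced arrays at 7.51 and 8.01 overlapped the induced range of 7.74 to 9.07. Plaur, the urokinase receptor gene, rose by 3.71 (SE 0.38, adjusted p = 1.73e-07, floored 2.67) on a probe set that can bind related transcripts. Akr1b8, an aldo-keto reductase gene, rose by 3.64 (SE 0.44, adjusted p = 2.98e-06).

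Tnfaip6 was the most uneven of the 12 largest rises. It encodes a hyaluronan-binding protein induced by inflammatory cytokines, and it was at 4.36 and 4.78 in fresh tissue. The LIF arrays were at 10.11 and 9.29, the ANX arrays at 10.06 and 8.45, and the NGAL arrays at 5.04 and 7.63, for a mean rise of 3.86 (SE 0.68, adjusted p = 0.000285, floored 2.64). The first NGAL array was thus barely above fresh tissue while every LIF and ANX array was far above it. The uninduced arrays, at 3.98 and 4.75, were at the fresh level.

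**Figure D1:**
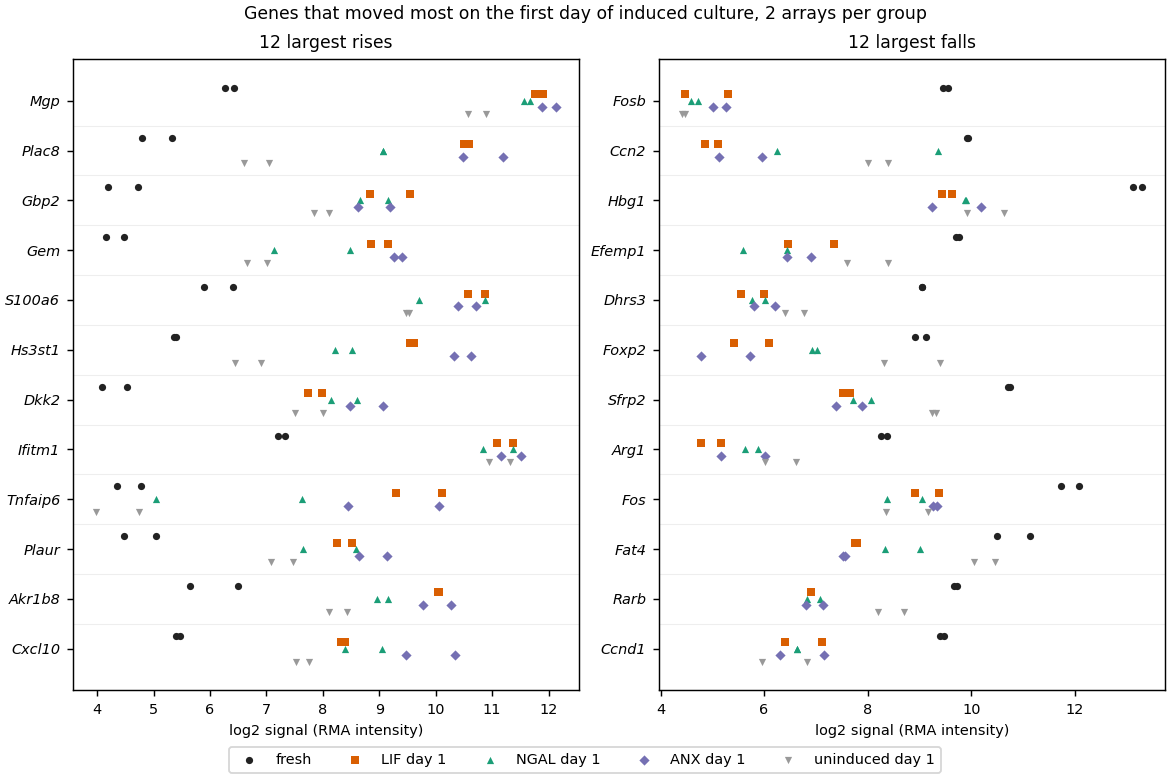
Log2 signal (RMA intensity, horizontal axis) of the 12 genes with the largest rise (left) and the 12 with the largest fall (right) on the first day of induced culture; each point is 1 array, with 2 arrays for each of the fresh, LIF, NGAL, ANX and uninduced groups. Induced and fresh arrays are apart for all 24 genes by the rule that chose them, while the uninduced arrays lie close to the induced ones for Mgp and Ifitm1 and close to fresh tissue for Tnfaip6 and Fat4.

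Among the falls, Fosb went from 9.55 and 9.46 in fresh tissue to between 4.47 and 5.31 (median 4.88) on the induced arrays, a change of -4.61 (SE 0.17, adjusted p = 8.15e-16, floored -3.72). Fosb and Fos encode subunits of the transcription factor AP-1 that cells switch on within minutes of a stimulus. Fos fell by 2.86 (SE 0.26, adjusted p = 3.44e-08), from 12.08 and 11.74 to between 8.38 and 9.37 (median 9.15). A further probe set of Fos changed by 0.01, so the fall of Fos rests on the brighter of its probe sets. Both genes were as low in uninduced culture, Fosb at 4.48 and 4.41 and Fos at 9.17 and 8.35.

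Hbg1, an embryonic globin gene, fell by 3.50 (SE 0.41, adjusted p = 1.8e-06), from 13.12 and 13.29 to between 9.25 and 10.19 (median 9.75). In whole-tissue RNA, fewer cells of a type and less RNA per cell cannot be told apart. Efemp1, a fibulin gene of the extracellular matrix, fell by 3.21 (SE 0.65, adjusted p = 0.0011), and Arg1, the arginase gene, fell by 2.87 (SE 0.43, adjusted p = 4.6e-05, floored -2.53). Sfrp2, a secreted Wnt antagonist gene, fell by 3.02 (SE 0.54, adjusted p = 0.000331), from 10.71 and 10.74 to between 7.38 and 8.07 (median 7.69), with the uninduced arrays at 9.32 and 9.25 between the groups.

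Fat4, an atypical cadherin gene with a part in signalling between stroma and progenitors in the kidney, was at 11.14 and 10.49 in fresh tissue. It was at 7.76 and 7.80 with LIF, 7.52 and 7.57 with ANX and 8.33 and 9.01 with NGAL, a change of -2.82 (SE 0.39, adjusted p = 1.51e-05). Its uninduced arrays, at 10.46 and 10.05, stayed near the fresh level. Ccn2, a connective tissue growth factor gene, was at 9.93 and 9.91 fresh and fell by 3.81 (SE 1.08, adjusted p = 0.0173, floored -3.46), but NGAL replicate 2 stood at 9.35, close to fresh tissue, while the other 5 induced arrays were between 4.85 and 6.24. Ccnd1, the cyclin D1 gene, fell by 2.73 (SE 0.66, adjusted p = 0.0055), from 9.47 and 9.40 to between 6.31 and 7.16 (median 6.63). Ccn2 and Ccnd1 were no longer called without fresh replicate 1 or without fresh replicate 2 (highest adjusted p 0.156 and 0.0889), and the other 22 of these 24 genes kept their calls under every alternative run.

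Gene lists for pathways and cell types are given by how many of their tested members were called, against the 8.44% of genes called higher and 6.21% called lower overall. The largest shares of higher genes were in cholesterol synthesis (20 of 21), thyroid hormone targets (4 of 5), the LIF and STAT3 response (12 of 22), the interferon response (8 of 17), fatty acid handling (7 of 15) and matrix proteases and inhibitors (7 of 15). Among the same lists, leaving out the retinoid and hedgehog lists put together later, the largest shares of lower genes were in the erythroid (7 of 10), endothelium (7 of 14) and Wnt/beta-catenin target (4 of 10) lists. Cytosolic ribosomal proteins (0 of 41), podocyte genes (0 of 7) and macrophage and leukocyte genes (0 of 12) held no called member. The podocyte and macrophage lists are too short for this to set them apart from all genes. In all lists 165 members were called; the number was 93 without fresh replicate 1 and 98 without fresh replicate 2.

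**Figure D2:**
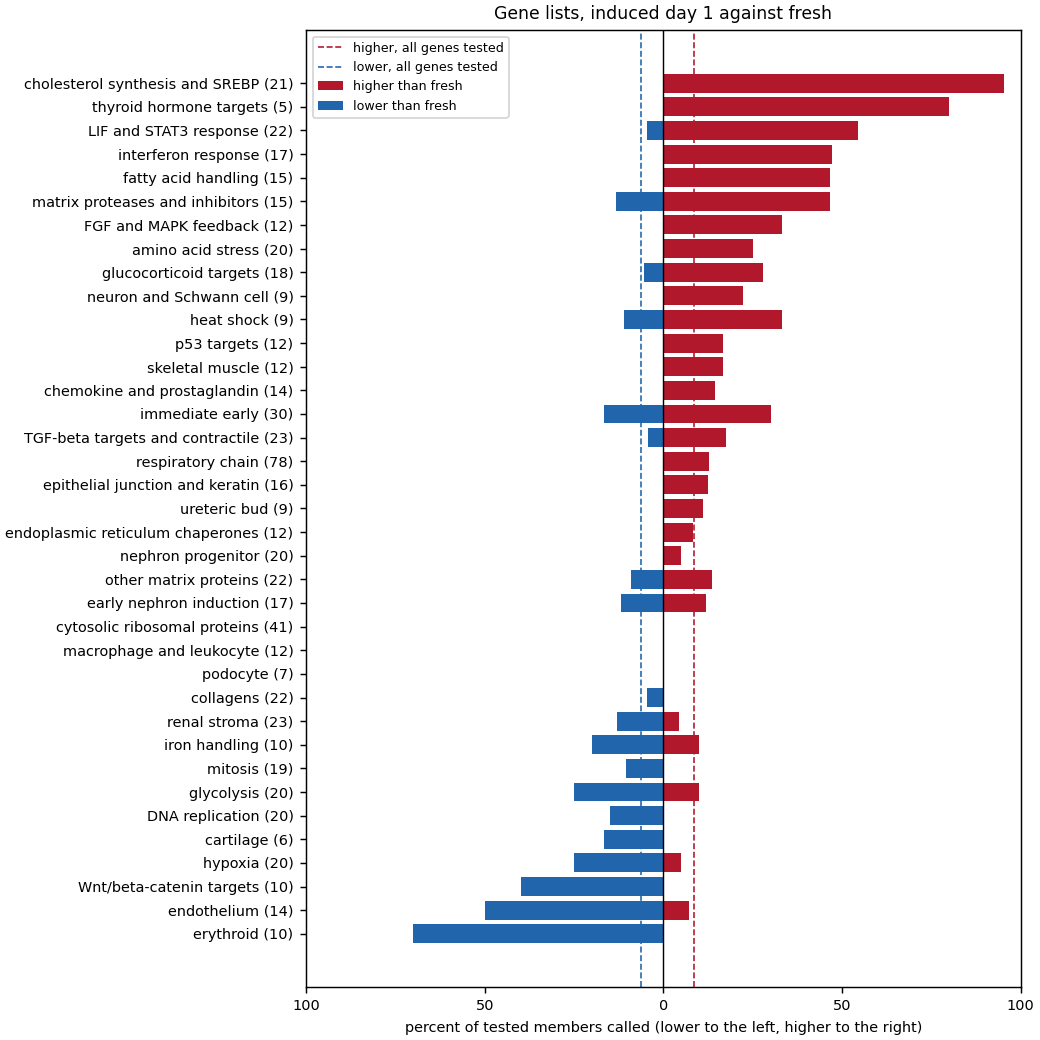
Percent of the tested members of each gene list (number tested in parentheses) called higher (to the right) or lower (to the left) on the first day of induced culture than in fresh mesenchyme; the dashed lines are the same percentages over all genes tested, 8.44 and 6.21. Cholesterol synthesis, with 20 of 21 higher, and the erythroid list, with 7 of 10 lower, are at the 2 ends.

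Cholesterol synthesis rose almost as a whole. Cells make cholesterol from acetyl-CoA by the mevalonate pathway, and the transcription factors SREBP1 and SREBP2 (genes Srebf1 and Srebf2) switch its enzymes on when sterols are short. Of 21 tested genes 20 rose, by 0.57 to 1.75, with a list median of 1.20 against -0.01 over all genes. For all 20 the 6 induced arrays lay above both fresh arrays. Arrays were likewise apart for 1624 of the 1668 called genes, so this adds little to the calls. Srebf2 was the member not called, at 0.30 (adjusted p = 0.176). Without fresh replicate 1, 17 members were called, and without fresh replicate 2, 16.

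Fdps, the farnesyl diphosphate synthase gene, was at 10.89 and 10.91 in fresh tissue and at 12.05 to 12.59 (median 12.47) induced, a rise of 1.51 (SE 0.17, adjusted p = 7.4e-07). Msmo1, a sterol methyl oxidase gene, rose by 1.75 (SE 0.20, adjusted p = 1.34e-06), from 9.47 and 9.41 to between 10.78 and 11.53 (median 11.21). Insig1, which encodes a sterol-regulated inhibitor of SREBP processing and is itself an SREBP target, rose by 1.61 (SE 0.21, adjusted p = 6.74e-06). Srebf1, Nsdhl and Lss rose by 1.10, 1.51 and 1.51 (adjusted p between 3.89e-06 and 1.81e-05). The uninduced arrays of Fdps, at 11.34 and 11.78, and of Msmo1, at 9.96 and 10.45, stood between fresh and induced tissue, while those of Srebf1, at 9.42 and 9.62, were within the induced range. Of the 21 members 9 were called higher than in uninduced culture and 0 lower, beside 4.04% and 5.27% of all genes. The median was 0.62 against 0.01 over all genes. Counts against uninduced culture depend on the uninduced pair, as set out below.

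**Figure D3:**
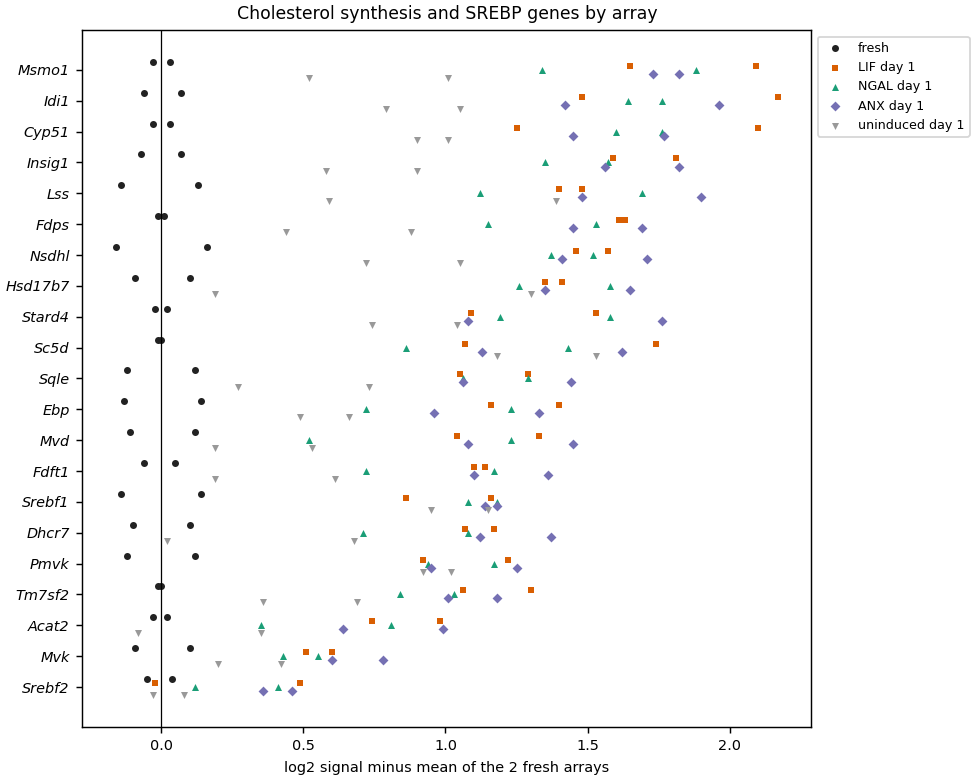
Log2 signal of the 21 tested cholesterol synthesis and SREBP genes on each array, minus the mean of the 2 fresh arrays (horizontal axis), ordered by the mean change; points are single arrays of the fresh, LIF, NGAL, ANX and uninduced groups. The induced arrays are to the right of both fresh arrays for 20 genes, with changes of 0.57 to 1.75. Arrays are apart for 1624 of all 1668 called genes. The uninduced arrays of Fdps and Msmo1 fall between.

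The promoters of a pair of these genes are shown because SREBP is known to work beside factors that bind a CCAAT box. The window runs from 250 bases before to 50 after the gene start in RefSeq, build GRCr8, written 5′ to 3′ on the gene's strand, with the CCAAT box (CCAAT, either strand) in capitals. Of the 20 risen members 16 had a promoter sequence, and 13 of the 16 held the box, as did 37.5% of all 33469 promoters. The members were counted by gene and the percentage by promoter, so these shares are unlike measures and nothing is read from their difference. The motif was chosen with the values known and these sequences because they hold it. Fdps is at chr2:176804767-176805066 (minus strand) and Insig1 at chr4:8057720-8058019 (minus strand).
Fdps: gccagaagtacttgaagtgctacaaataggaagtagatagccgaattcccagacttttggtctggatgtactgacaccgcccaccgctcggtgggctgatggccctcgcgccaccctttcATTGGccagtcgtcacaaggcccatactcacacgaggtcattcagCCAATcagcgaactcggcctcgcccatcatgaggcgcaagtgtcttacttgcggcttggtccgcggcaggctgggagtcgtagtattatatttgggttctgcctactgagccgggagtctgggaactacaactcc
Insig1: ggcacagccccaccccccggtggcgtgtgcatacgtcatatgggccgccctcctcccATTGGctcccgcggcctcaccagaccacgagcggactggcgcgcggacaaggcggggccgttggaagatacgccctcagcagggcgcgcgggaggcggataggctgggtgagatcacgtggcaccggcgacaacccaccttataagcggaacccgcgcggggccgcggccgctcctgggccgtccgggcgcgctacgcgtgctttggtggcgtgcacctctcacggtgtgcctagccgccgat

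Other lipid genes went the same way in part. Of 15 fatty acid handling genes 7 rose and 0 fell, with a median of 0.66. Scd, a stearoyl-CoA desaturase gene, rose by 2.33 (SE 0.35, adjusted p = 3.91e-05), from 8.01 and 7.29 to between 9.11 and 10.20 (median 10.12). Elovl6, Fads1 and Fads2, which lengthen and desaturate fatty acids, rose by 1.02, 0.96 and 0.96. Cpt1a, which admits fatty acids to the mitochondrion for oxidation, rose by 1.85 (SE 0.20, adjusted p = 5.82e-07), and it was higher still in uninduced culture, at 9.61 and 9.18 against 7.60 to 8.78 induced (-1.14, adjusted p = 0.00154, and 0.125 without uninduced replicate 1). Another probe set of Cpt1a changed by 0.45. Without fresh replicate 1 or 2 the list count was 4 in each case, and Fads2 and Scd2 (0.70) were among those lost. Of 5 thyroid hormone targets 4 were higher than in fresh tissue; the medium held T3 with and without an inducer. Dio3, which encodes the deiodinase that inactivates the hormone, went from 6.79 and 6.82 to between 8.40 and 10.37 (median 9.61), a rise of 2.80 (SE 0.31, adjusted p = 7.4e-07). Its uninduced arrays were at 7.91 and 7.41, and induced culture was higher by 1.95 (adjusted p = 0.00061). Me1, the malic enzyme gene, rose by 1.33 (SE 0.24, adjusted p = 0.000359). The remaining called members, Klf9 and Bcl3, are in other lists too. The call of Klf9 (1.11) was lost without fresh replicate 2 and with the mean of probe sets. Another probe set of Klf9 changed by 0.09. The least changed probe set of Bcl3 rose by 0.60, and the one used by 2.33 (floored 2.07). Klf9 was lower with an inducer than without (-0.83, adjusted p = 0.0334). This call ended with the mean of probe sets and without uninduced replicate 1, LIF replicate 1, ANX replicate 1 or NGAL replicate 2.

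The LIF and STAT3 response list had 12 of 22 members higher and 1 lower, with a median of 1.03. The rise was not limited to the LIF cultures. Cebpb, a transcription factor gene of the acute-phase response, was at 6.95 and 6.40 in fresh tissue, 10.72 and 10.07 with LIF, 8.96 and 9.38 with NGAL and 10.95 and 10.49 with ANX, a rise of 3.42 (SE 0.35, adjusted p = 2.29e-07). Every induced array was above both fresh arrays and also above both uninduced arrays, at 8.56 and 8.51. Bcl6, a transcriptional repressor gene, rose by 2.59 (SE 0.20, adjusted p = 2.98e-09, floored 2.27), and its uninduced arrays, at 7.95 and 7.71, were within the induced range of 7.43 to 8.38. Stat3 itself was at 6.81 and 7.38 fresh and at 9.16 to 10.72 (median 9.73) induced, a rise of 2.72 (SE 0.45, adjusted p = 0.000123), and its second probe set above the threshold rose by 2.11. Its uninduced arrays, at 10.52 and 8.59, lay within and below the induced range. Against uninduced culture 11 of the 22 members were higher and 0 lower, beside 4.04% and 5.27% of all genes, with a median of 0.64.

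A2m, the acute-phase gene of alpha-2-macroglobulin, rose by 2.40 (SE 0.36, adjusted p = 4e-05), with the LIF arrays at 11.39 and 11.25 above the NGAL arrays at 9.09 and 10.24 and the ANX arrays at 10.56 and 9.59 (F-test adjusted p = 0.404). Timp1, a protease inhibitor gene, rose by 1.81 (SE 0.31, adjusted p = 0.000209). Socs2, a suppressor of cytokine signalling gene, was the member that fell, by 1.54 (SE 0.23, adjusted p = 5.1e-05, floored -1.11). Socs3, the direct feedback inhibitor of the LIF receptor, was at 6.82 and 6.84 fresh and at 8.45 and 8.22 with LIF, but at 6.70 and 6.55 with NGAL and 7.70 and 6.88 with ANX, and the mean of the inducers did not pass the test (0.59, SE 0.26, adjusted p = 0.141; called with array weights and with the dap ratio as covariate). Lcn2, the gene of NGAL, was near background, with a value of 0.12 (SE 0.33, adjusted p = 0.873). Cebpd (2.13) lost its call without fresh replicate 1.

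Of 17 interferon response genes 8 rose and 0 fell, with a median of 0.69. The classical antiviral members Isg15 and Irf7 were at 0.01 and 0.07, uncalled. With the filter raised to log2 7.10, 8 members still rose and the median was 1.99, so low-signal genes were among the uncalled members. Ifitm1 and Ifitm3, membrane proteins that restrict virus entry, went from 7.21 and 7.33 to between 10.84 and 11.52 (median 11.26) and from 8.61 and 8.53 to between 11.68 and 11.97 (median 11.94). They rose by 3.95 (SE 0.55, adjusted p = 1.68e-05) and 3.32 (SE 0.46, adjusted p = 1.42e-05). The uninduced arrays were within the induced range for Ifitm1, and for Ifitm3 they were at 11.89 and 11.57, 1 within it and 1 below it. Gbp2, an interferon-induced GTPase gene, rose by 4.54 (SE 0.46, adjusted p = 1.71e-07, floored 3.22), from 4.72 and 4.20 to between 8.63 and 9.54 (median 9.0). Cxcl10, a chemokine gene, rose by 3.57 (SE 0.48, adjusted p = 9.47e-06, floored 3.21), and the ANX arrays at 9.48 and 10.35 were its highest. Igtp, another GTPase gene, rose by 2.10 (SE 0.20, adjusted p = 7.58e-08, floored 1.02), and its other probe set by 1.08. Irf1, the gene of an interferon regulatory factor, rose by 1.10 (SE 0.16, adjusted p = 1.94e-05). The number of members that rose was 8 without fresh replicate 1 and 7 without fresh replicate 2.

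The promoters of Gbp2, Igtp and Cxcl10 are shown because an interferon-stimulated response element is the textbook site of interferon regulatory factors. It was searched as TTTCNNTTTC on both strands (its reverse complement is GAAANNGAAA), and the match is in capitals. Of the 8 risen members 7 had a sequence and 5 of the 7 held a match, against 3.92% of all promoters of this length. Here too members were counted by gene and the percentage by promoter, so the shares cannot be compared directly. The sequences shown were again picked for the match. All 3 are on the plus strand of GRCr8, Gbp2 at chr2:234005477-234005776, Igtp at chr10:42874797-42875096 and Cxcl10 at chr14:15988816-15989115.
Gbp2: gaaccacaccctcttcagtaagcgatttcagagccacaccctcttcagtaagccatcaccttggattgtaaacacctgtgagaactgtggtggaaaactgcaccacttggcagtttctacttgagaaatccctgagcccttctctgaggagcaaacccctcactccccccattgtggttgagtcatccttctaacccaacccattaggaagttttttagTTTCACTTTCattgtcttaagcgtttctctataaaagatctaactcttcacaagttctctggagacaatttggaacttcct
Igtp: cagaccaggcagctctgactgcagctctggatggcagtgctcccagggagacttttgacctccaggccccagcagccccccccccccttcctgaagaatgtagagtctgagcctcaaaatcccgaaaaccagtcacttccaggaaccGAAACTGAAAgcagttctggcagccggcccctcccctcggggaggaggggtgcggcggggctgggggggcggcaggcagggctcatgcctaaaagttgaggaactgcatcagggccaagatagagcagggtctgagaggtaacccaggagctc
Cxcl10: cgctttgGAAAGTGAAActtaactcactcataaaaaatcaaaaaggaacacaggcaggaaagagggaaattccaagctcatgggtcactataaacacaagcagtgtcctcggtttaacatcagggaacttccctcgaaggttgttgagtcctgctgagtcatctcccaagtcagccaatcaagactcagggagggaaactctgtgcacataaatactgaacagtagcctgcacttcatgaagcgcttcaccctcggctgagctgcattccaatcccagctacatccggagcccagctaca

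Immediate early genes moved in both directions, 9 of 30 higher and 5 lower, with a median of 0.00. Besides Fosb and Fos, the falls were Dusp1, a phosphatase gene that ends MAP kinase signals, Jun, the partner of Fos in AP-1, and Klf4, a Krüppel-like factor gene. Dusp1 went from 11.12 and 10.76 to between 8.02 and 8.61 (median 8.45), a change of -2.54 (SE 0.33, adjusted p = 5.5e-06). Jun fell by 2.00 (SE 0.30, adjusted p = 5.07e-05) on a probe set that can bind related transcripts, and Klf4 by 1.91 (SE 0.24, adjusted p = 3.51e-06). The 5 falls were called without either fresh array. Egr1, the most used marker of the immediate early response, did not move with them: it stood at 11.36 and 10.95 fresh and 10.64 to 11.42 induced, a value of -0.02 (SE 0.21, adjusted p = 0.975). In the other direction, Ier3, a survival gene that growth factors induce, went from 7.35 and 7.33 to between 9.84 and 11.63 (median 10.86), a rise of 3.48 (SE 0.25, adjusted p = 1.11e-09). The other 8 rises were Egr2, Fosl2, Junb, Ier5, Nr4a1, Maff, Csrnp1 and Gadd45b, at 0.73 to 2.05 (Maff, near background, at 0.29 when floored); 5 of the 9 were called without fresh replicate 1 and 7 without fresh replicate 2.

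FGF was in the medium, and 4 of 12 FGF and MAPK feedback genes rose, with 0 lower and a median of 0.57. Apart from Ier3 these were Dusp6, the phosphatase gene that inactivates ERK (0.94, SE 0.23, adjusted p = 0.00619), Spry4 (0.68, adjusted p = 0.00765) and Spry1 (0.72, adjusted p = 0.0413), both Sprouty inhibitors of receptor tyrosine kinases. These 3 calls rested on the fresh pair, since Dusp6 and Spry1 lost theirs without either fresh array and Spry4 without fresh replicate 2. Dusp6 was at 11.14 and 11.30 fresh, 12 to 12.32 (median 12.16) induced, and 10.99 and 11.15 in uninduced culture in the same FGF, where it stayed at the fresh level. Against uninduced culture it was higher by 1.09 (adjusted p = 0.00484, and 0.163 without uninduced replicate 1).

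In the nephron progenitor list 1 of 20 tested members rose and 0 fell, beside 8.44% and 6.21% of all genes. The median was 0.04 against -0.01 over all genes. With so few members these counts do not set the list apart from all genes. Eya1 was at 11.13 and 10.97 fresh and 11.06 to 11.30 (median 11.17) induced, and Sall1 at 11.04 and 10.91 against 10.82 to 11.16 (median 10.97), values of 0.13 (SE 0.42) and 0.02 (SE 0.39). Pax2 and Wt1 had values of -0.39 (SE 0.37) and -0.47 (SE 0.31), and Gdnf, the ligand that draws in the ureteric bud, -0.57 (SE 0.26, adjusted p = 0.161; called lower with array weights and with the dap ratio as covariate). The SEs limit how small a change in these genes could have been called. The called member was Tmem100, which encodes a small membrane protein. It was at 8.25 and 8.13 fresh and 10.51 to 11.44 (median 11.26) induced. The rise was 2.91 (SE 0.51, adjusted p = 0.000253), while a second probe set rose by 0.59.

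Of 17 early induction genes 2 were higher (Bmp2 and Hes1) and 2 lower (Sfrp2 and Ccnd1), with a median of -0.02; the mean level of the list was 7.68 and 7.62 on the fresh arrays and 7.12 to 7.46 on the induced ones. Pax8 was at 8.67 and 8.71 in fresh tissue and at 8.09 to 9.71 (median 8.77) induced, a value of 0.22 (SE 0.36, adjusted p = 0.754). Wnt4 was at 9.18 and 8.98 fresh, at 9.95 and 10 with LIF, 9.48 and 8.68 with ANX and 7.67 and 8.71 with NGAL, a mean difference of 0.00 (SE 0.45, adjusted p = 0.998). In both genes the induced arrays lay on both sides of the fresh arrays. The uninduced arrays were lower, Pax8 at 6.92 and 6.97 and Wnt4 at 8.09 and 6.77, so that induced culture stood above uninduced culture by 1.96 (SE 0.36, adjusted p = 0.00196) and 1.66 (SE 0.45, adjusted p = 0.0242). Lef1, a Wnt effector gene, was above uninduced culture by 0.72 (SE 0.21, adjusted p = 0.0307) and at -0.32 against fresh (adjusted p = 0.354), where its other probe set was at 0.06. Without uninduced replicate 1 all 3 of these calls ended (highest adjusted p 0.0713, 0.274 and 0.438), and those of Wnt4 and Lef1 also ended without uninduced replicate 2, NGAL replicate 2 or ANX replicate 1. Bmp2 rose by 1.05 (adjusted p = 0.00892; not called without fresh replicate 2) and Hes1, a Notch target gene, by 0.54 (adjusted p = 0.0405; not called without either fresh array).

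Wnt/beta-catenin targets had 4 of 10 members lower and 0 higher, with a median of -0.31. Besides Sfrp2 and Ccnd1 these were Nkd1 (-0.62, SE 0.15, adjusted p = 0.00519) and Apcdd1 (-0.55, SE 0.18, adjusted p = 0.0467), both of which encode Wnt inhibitors. Without fresh replicate 1 there was 1 call and without fresh replicate 2 there were 2, Apcdd1 being lost in either case and Nkd1 without fresh replicate 1.

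**Figure D4:**
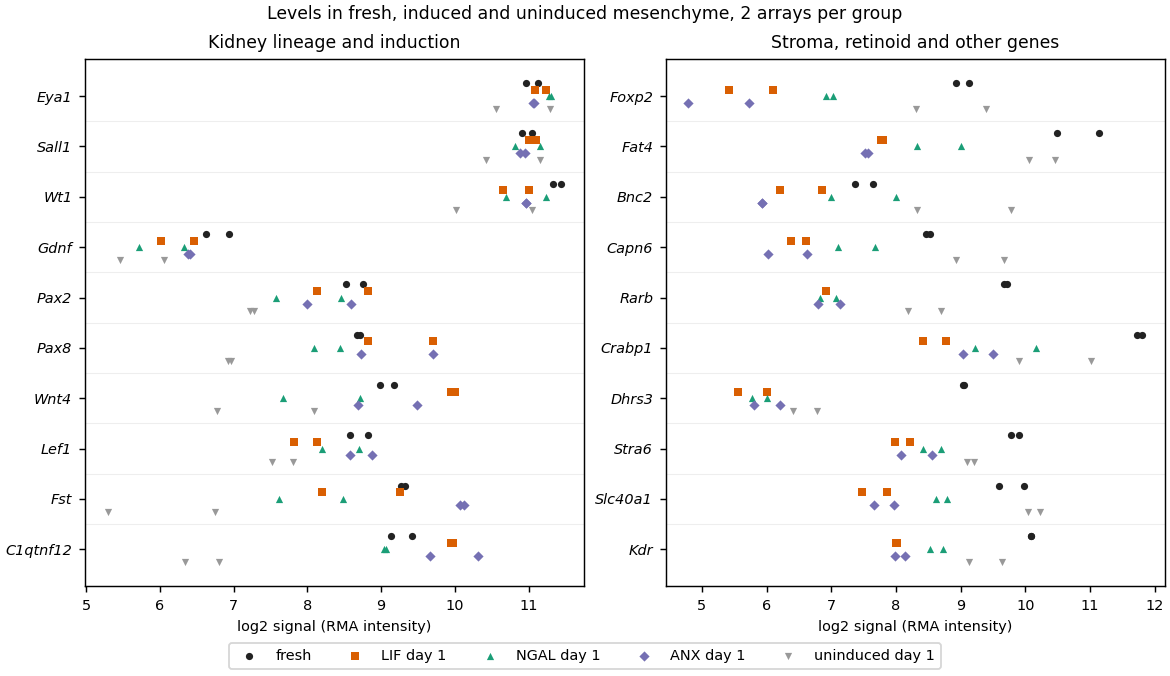
Log2 signal (RMA intensity, horizontal axis) of 10 kidney lineage and induction genes (left) and 10 stromal, retinoid and other genes (right); each point is 1 array of the fresh, LIF, NGAL, ANX or uninduced group. Eya1 and Sall1 overlap in all groups, the uninduced arrays of Pax8 at 6.92 and 6.97 are below fresh and induced tissue, and the induced arrays of Foxp2 and Rarb are below both fresh and uninduced arrays.

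Of 23 stromal genes 3 fell (Foxp2, Rarb and Tbx18) and 1 rose (Tagln), with a median of -0.18. Foxp2, a forkhead transcription factor gene, was at 9.13 and 8.92 fresh, 5.42 and 6.10 with LIF, 4.79 and 5.73 with ANX and 6.92 and 7.03 with NGAL, a change of -3.03 (SE 0.47, adjusted p = 6.65e-05, floored -2.84). Its uninduced arrays, at 9.39 and 8.31, were at the fresh level. Tbx18, a T-box factor gene of the ureter mesenchyme, fell by 0.96 (adjusted p = 0.013; not called without fresh replicate 1). Tagln, a smooth muscle actin-binding protein gene, rose by 2.31 (SE 0.63, adjusted p = 0.0135), with NGAL replicate 2 highest at 11.42, and was not called without either fresh array.

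Retinoid genes were put together after their values were seen, because Dhrs3 and Rarb were among the largest falls; 6 of 13 were lower and 1 higher, and no test of the list was made. Retinoic acid is made from retinol and acts through the receptors of the RAR family, and Rarb and Dhrs3 are known targets of it. Dhrs3, which encodes a retinal reductase, went from 9.05 and 9.04 to between 5.56 and 6.21 (median 5.90), a change of -3.15 (SE 0.24, adjusted p = 2.05e-09, floored -3.15). Crabp1, a retinoic acid binding protein gene, fell by 2.58 (SE 0.39, adjusted p = 4.12e-05), and Stra6, the retinol transporter gene, by 1.52 (SE 0.29, adjusted p = 0.000576). Cyp26b1, a retinoic acid hydroxylase gene, fell by 0.69 (adjusted p = 0.000524; 0.0823 without fresh replicate 1), and its other probe set above the threshold by 4.48. Rarg fell by 0.81 (adjusted p = 0.00408; not called without either fresh array). Lrat, which stores retinol as esters, was the member that rose, by 1.11 (adjusted p = 0.0302, floored 0.20), mostly in the LIF arrays at 6.75 and 6.01, and this call too was lost without either fresh array. Aldh1a2, the gene of the enzyme that makes retinoic acid, was at -0.47 (adjusted p = 0.114).

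Rarb itself was at 9.72 and 9.67 in fresh tissue and at 6.80 to 7.14 (median 6.91) on the induced arrays, a change of -2.75 (SE 0.29, adjusted p = 3.05e-07). The induced arrays were close together and below the uninduced arrays, at 8.70 and 8.19, which were themselves below fresh tissue. Its promoter is shown because it holds the textbook retinoic acid response element, a direct repeat with 5 bases between the half-sites, searched as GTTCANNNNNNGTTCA on both strands and printed in capitals. The match starts 25 bases after the gene start, and 0.418% of all 33469 promoters of this length hold one. The window is chr15:11336142-11336441, plus strand, GRCr8.
Rarb: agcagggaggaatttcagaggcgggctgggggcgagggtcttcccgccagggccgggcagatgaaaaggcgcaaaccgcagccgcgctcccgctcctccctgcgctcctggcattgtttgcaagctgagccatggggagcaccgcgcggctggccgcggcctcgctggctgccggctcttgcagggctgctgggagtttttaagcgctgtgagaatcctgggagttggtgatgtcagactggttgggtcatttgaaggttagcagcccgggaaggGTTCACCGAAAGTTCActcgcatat

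A further pair of genes looked up after their values were seen belongs to hedgehog signalling. Gli1, the transcription factor gene that reports the activity of that pathway, was at 7.87 and 7.88 in fresh tissue and at 5.56 to 5.85 (median 5.69) induced, a change of -2.17 (SE 0.11, adjusted p = 8.06e-13, floored -2.09). The uninduced arrays, at 5.54 and 5.58, were as low, so all 8 cultured arrays were near background. Smo, the signal transducer gene, fell by 0.45 (adjusted p = 0.0138; lost without fresh replicate 1), and the other 4 of the 6 genes tested were not called.

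Markers of other cell types moved with the comparison. In the erythroid list 7 of 10 genes fell and 0 rose, with a median of -1.11, and the mean level of the list was 8.89 and 9.09 on the fresh arrays and 7.66 to 7.95 on the induced ones. Hbz, an embryonic alpha-like globin gene, fell by 1.93 (SE 0.39, adjusted p = 0.0011), Ahsp, the alpha-globin chaperone gene, by 1.65 (SE 0.20, adjusted p = 2.41e-06), and Alas2, which starts haem synthesis in red cells, by 1.72 (SE 0.29, adjusted p = 0.000205). Hbb fell by 0.88 on a probe set that can bind related transcripts. The globin signal did not vanish: Hbe1 was at 13.60 and 13.73 fresh and still at 12.01 to 12.59 (median 12.36) induced, a change of -1.34 (adjusted p = 0.016). Hbe1 was not called without either fresh array, and 5 members remained called in each case. Uninduced culture was similar, with list means of 8.26 and 7.92. In induced culture 1 of the 10 members was lower than in uninduced culture, beside 5.27% of all genes.

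In the endothelium list 7 of 14 genes fell and 1 rose (Sox17, 0.94, adjusted p = 0.0402), with a median of -0.56; list means were 7.99 and 8.02 fresh and 7.20 to 7.58 induced. Kdr, the VEGF receptor gene, went from 10.08 and 10.09 to between 7.99 and 8.73 (median 8.07), a change of -1.85 (SE 0.32, adjusted p = 0.000209). Tek, the angiopoietin receptor gene, fell by 1.42 (SE 0.14, adjusted p = 1.24e-07), but near background (floored -0.03). Ramp2 (-1.08), Plvap (-0.85), Tie1 (-0.69), Esam (-0.68) and Sox18 (-0.59) fell too. The count of falls was 5 without fresh replicate 1 and 2 without fresh replicate 2, where Ramp2, Plvap, Tie1 and Esam were among those lost. Against uninduced culture 4 of the 14 were lower, beside 5.27% of all genes. Among them were Kdr (-1.15, adjusted p = 0.0249) and Tie1 (-0.66, adjusted p = 0.00885), and these 2 calls ended without uninduced replicate 1.

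Macrophage and leukocyte genes were at -0.34 to 0.46 with 0 of 12 called, too few members to differ from the shares over all genes. Their mean level was 6.03 to 6.62 on induced arrays against 6.29 and 6.34 fresh. Of 12 skeletal muscle genes 2 rose, Tnnc1 (1.72, adjusted p = 1.44e-05) and Des (0.74, adjusted p = 0.00465; lost without either fresh array). Of 9 neuron and Schwann cell genes Nefm (1.58) and Tubb3 (0.97) rose, of 9 ureteric bud genes only Krt18 (2.26, adjusted p = 0.0209, floored 1.07), which is also in the epithelial list beside Dsc2 (0.99, floored 0.00), and of 6 cartilage genes Hapln1 fell (-0.61, adjusted p = 0.043, floored -0.55). All of these but Tnnc1 were lost without fresh replicate 1. The part of such cell types in the results above was not tested.

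Metabolic and stress genes showed a mixed picture. In glycolysis 5 of 20 fell and 2 rose: Pfkl, the liver-type phosphofructokinase gene, went from 9.43 and 9.46 to between 6.45 and 7.83 (median 7.58), a change of -2.16 (SE 0.51, adjusted p = 0.00435), while Pfkp, the platelet-type gene, rose by 1.17 (SE 0.15, adjusted p = 5.5e-06) from 7.47 and 7.10 to between 8.18 and 8.75 (median 8.48). Eno2 rose by 1.62 (SE 0.23, adjusted p = 1.86e-05), and Tpi1 (-0.80), Pdk1 (-0.66), Ldha (-0.53) and the lactate exporter gene Slc16a3 (-1.31) fell. The calls of Pfkl and Ldha ended without either fresh array and that of Pdk1 without fresh replicate 1, and 1 fall was left without fresh replicate 1 and 2 without fresh replicate 2. Of 20 hypoxia genes 5 fell, led by Bnip3, a mitophagy receptor gene (-1.20, SE 0.19, adjusted p = 7.71e-05), and 1 rose (Higd1a, 0.51; lost without either fresh array). The hypoxia count was 2 without fresh replicate 1 and 3 without fresh replicate 2.

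In the respiratory chain 10 of 78 genes rose, but by little, 0.28 to 0.80 (Ndufb9 by 0.47, adjusted p = 0.000695), and 1 call was left without either fresh array. Of 41 cytosolic ribosomal protein genes 0 were called, with changes of -0.34 to 0.16. Of 9 heat shock genes 3 rose and 1 fell, with a median of 0.03. Hspb1, a small heat shock protein gene, went from 6.04 and 6.23 to between 8.90 and 9.71 (median 9.26), a rise of 3.15 (SE 0.56, adjusted p = 0.000318), and Bag3, a co-chaperone gene, and Hspb8 rose by 2.35 (floored 2.28) and 1.66. Hspa1a, the inducible HSP70 gene, fell by 1.21 (adjusted p = 0.00208; lost without fresh replicate 1). Asns, asparagine synthetase, rose by 1.58 (SE 0.29, adjusted p = 0.000414) and led 5 rises among 20 amino acid stress genes; the count was 2 and 3 without the respective fresh arrays. Proliferation genes changed little: 2 of 19 mitosis genes (Top2a at -0.70, Nusap1 at -0.50) and 3 of 20 DNA replication genes (Mcm2 at -0.30, Lig1 at -0.36, Ccne2 at -0.69) were lower, and without fresh replicate 1 none of these 5 was called. Other probe sets of Lig1 and Ccne2 were at 0.01 and 0.10, and both calls also ended with the mean of probe sets. The p53 targets Ccng1 (1.10) and Phlda3 (0.64) were the 2 of 12 that rose, and both were lost without either fresh array.

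Of 22 collagen genes 0 rose and 1, Col15a1, fell (-1.12, SE 0.18, adjusted p = 0.000135). Of 15 proteases and inhibitors 7 rose and 2 fell, with a median of 0.64: Plaur, Timp1, Adamts4 (1.17, adjusted p = 0.000774), Mmp14 (0.64, adjusted p = 0.000718), Timp2 (0.59), Adamts1 and Serpine2 rose, and Mmp11 (-1.01, SE 0.19, adjusted p = 0.000495) and Mmp2 (-0.88) fell. Timp2 was not called without either fresh array, and 4 rises and 1 fall were left in each case. The calls of Timp2 and Mmp14 also ended with the mean of probe sets, and another probe set of Timp2 changed by 0.07. Of 22 other matrix protein genes 3 rose and 2 fell, with a median of 0.14. Spp1, the osteopontin gene, rose by 3.29 (SE 0.50, adjusted p = 4.74e-05), with LIF at 11.02 and 11.18, ANX at 10.29 and 9.74 and NGAL at 8.26 and 9.61, and fresh tissue at 6.84 and 6.61. Nid2, a basement membrane gene, fell by 1.28 (SE 0.25, adjusted p = 0.000917), and Bgn, biglycan, rose by 1.15 (adjusted p = 0.00978; lost without either fresh array).

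The medium held dexamethasone, a glucocorticoid. Of 18 glucocorticoid targets 5 rose and 1 fell, with a median of 0.08: Mt2A, a metallothionein gene, rose by 1.99 (SE 0.35, adjusted p = 0.000276), whereas Tsc22d3, the glucocorticoid-induced leucine zipper gene, fell by 0.49 (adjusted p = 0.0306). Fkbp5 rose by 0.49 (adjusted p = 0.00485) and Errfi1 by 0.96 (adjusted p = 0.014). The calls of Tsc22d3, Fkbp5 and Errfi1 ended without either fresh array, and 2 rises were left. The labels leave unclear which TGF the medium held. Of 23 TGF-beta and contractile genes 4 rose and 1 (Ccn2) fell, with a median of 0.02. Tgfb2, the ligand gene, rose by 2.15 (SE 0.32, adjusted p = 3.24e-05), from 6.48 and 7.06 to between 8.40 and 9.49 (median 8.98), and Tpm2, a tropomyosin gene, by 1.22 (SE 0.16, adjusted p = 9.65e-06). Other probe sets of Tgfb2 and Tpm2 rose by 0.99 and 0.24. The uninduced arrays of Tgfb2, at 9.02 and 9.0, were within the induced range, and those of Tpm2 were at 11.76 and 12.10. In iron handling Slc40a1, which encodes the iron exporter ferroportin, fell by 1.73 (SE 0.36, adjusted p = 0.0017; 0.0633 without fresh replicate 2), from 9.59 and 9.98 to between 7.47 and 8.79 (median 7.91). Ptgs2, the cyclooxygenase 2 gene, was at 3.63 and 3.72 fresh, 8.71 and 8.94 with ANX and 5.92 to 6.73 on the other 4 induced arrays, a rise of 3.48 (SE 0.54, adjusted p = 5.79e-05, floored 1.37).

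The 3 inducers were then set side by side. Of the 1668 genes called on the mean, 1666 had all 3 inducer means on the same side of fresh tissue; the exceptions were Nptx1 and Tnfrsf26, whose calls ended without fresh replicate 2 and without either fresh array. Choosing genes by the mean of the 3 inducers largely fixes this count, and nothing is read from it. Tested one by one, LIF differed from fresh tissue in 1192 genes (677 higher), NGAL in 620 (380 higher) and ANX in 1258 (752 higher). In 492 genes, 4.32% of those tested, each of the 3 was called in the same direction, 312 higher and 180 lower. These 3 contrasts share the 2 fresh arrays, so part of their agreement is built in. The count of 492 was 161 without fresh replicate 1, 191 without fresh replicate 2, 205 without NGAL replicate 2, 272 without NGAL replicate 1 and 322 without LIF replicate 2. Among the called genes the median size of the change was 0.68 for LIF, 0.57 for NGAL and 0.71 for ANX. NGAL had the smallest of the 3 changes in 16 of the 24 genes with the largest changes, and the F-test between inducers called 0 of the 24. Among the induced groups the NGAL duplicates differed most (SD 0.342), and NGAL replicate 1 had the highest dap ratio (1.63). The part of array quality in the smaller NGAL changes was not tested.

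The F-test, which does not use the fresh arrays, called 7 genes, 0.0615% of those tested. An unadjusted p under 0.05 was reached by 514 genes, no more than that cutoff passes when no gene differs. LIF stood highest in most of the 7 called genes. Ostf1, an osteoclast-stimulating factor gene, was at 10.64 and 10.90 with LIF, 9.06 and 9.28 with NGAL and 10.18 and 9.64 with ANX (F-test adjusted p = 0.00391; LIF minus NGAL 1.60, adjusted p = 0.000782). Tspan5, a tetraspanin gene, was at 9.48 and 9.54 with LIF against 7.75 and 8.37 with NGAL and 8.81 and 8.41 with ANX (F-test adjusted p = 0.00391). Bcl3, an IkappaB family gene that STAT3 can induce, was at 9.22 and 8.57 with LIF, 8.52 and 7.91 with ANX and 6.08 and 6.84 with NGAL, and at 5.55 and 5.50 in fresh tissue (F-test adjusted p = 0.0141). In each of these genes the LIF pair lay above the NGAL pair without overlap.

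Nptx1, a neuronal pentraxin gene, ran the other way. It was at 5.00 and 4.34 with LIF, the fresh level, and higher with NGAL at 6.29 and 6.52 and with ANX at 5.60 and 5.96 (F-test adjusted p = 0.00504). Cxcl1, a neutrophil chemokine gene, was high with ANX: both ANX arrays were at 8.43 and 8.42, and the other 4 induced arrays, the fresh and the uninduced ones were all between 4.80 and 5.22 (F-test adjusted p = 0.046). Its difference between ANX and NGAL, 3.34 (2.64 with NGAL floored), did not pass on its own (adjusted p = 0.116). Igtp was highest with LIF, at 7.39 and 7.98 against 5.98 to 6.55 on the other induced arrays (F-test adjusted p = 0.0164), and Tnfrsf26, a TNF receptor family gene near background, was above fresh tissue with LIF and ANX and not with NGAL (F-test adjusted p = 0.046). The next genes did not pass: B4galt5 at 0.055, Lrat at 0.0684 and Socs3 at 0.0712. The 7 calls rested on few arrays, with 0 left without NGAL replicate 1, 2 without LIF replicate 2 and 11 without ANX replicate 1. NGAL replicate 1 had the highest dap 3'/5' log2 ratio of the induced arrays, 1.63 against 0.84 to 1.37, and the highest Actb ratio, 1.38 against 0.73 to 1.05; with the dap ratio as a covariate 11 genes were called.

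**Figure D5:**
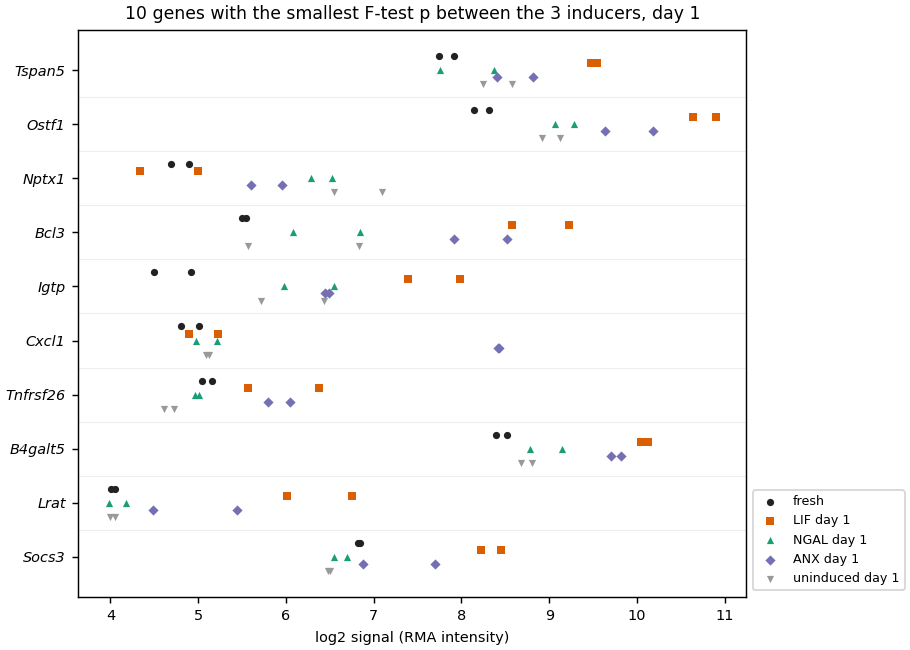
Log2 signal (RMA intensity, horizontal axis) of the 10 genes with the smallest F-test p between the 3 inducers on day 1; each point is 1 array of the fresh, LIF, NGAL, ANX or uninduced group. Cxcl1 is at 8.43 and 8.42 with ANX and between 4.80 and 5.22 elsewhere, and LIF is above NGAL on both arrays for 8 of the 10 genes, the others being Cxcl1 and Nptx1.

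Against the 2 uninduced arrays of the same day, induced culture differed in 1060 genes, 460 higher (4.04%) and 600 lower (5.27%). This is also the test of whether the change from fresh tissue differed with and without an inducer, since the fresh level cancels. Of the 24 genes with the largest changes from fresh, 9 passed this test. They were the rises Plac8, Gem, Hs3st1, Tnfaip6, Plaur and Akr1b8 and the falls Foxp2, Fat4 and Rarb. The 24 were picked for extreme values on the induced arrays, and the same induced arrays enter this test. That choice favours passing in the same direction, so nothing is read from the count of 9 beside the shares over all genes. Fosb was under the threshold with and without an inducer. For Mgp (1.09, adjusted p = 0.132), Ifitm1 (0.10, adjusted p = 0.928) and Dhrs3 (-0.70, adjusted p = 0.0624) no difference from uninduced culture was called.

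The genes highest above uninduced culture were Tnfaip6 (4.07, floored 2.64, SE 0.68, adjusted p = 0.00085), Plac8 (3.33, SE 0.65, adjusted p = 0.00251), C1qtnf12 (3.10, SE 0.43, adjusted p = 0.000194), Fst (2.94, SE 0.44, adjusted p = 0.000284), Hs3st1 (2.79) and Upp1 (2.58). C1qtnf12, a secreted adipokine gene, and Fst, the gene of the activin antagonist follistatin, had not risen over fresh tissue: C1qtnf12 was at 9.42 and 9.13 fresh, 9.04 to 10.32 induced and 6.34 and 6.80 uninduced. Fst was at 9.27 and 9.32 fresh, 7.61 to 10.12 induced, with ANX highest at 10.07 and 10.12, and 5.29 and 6.74 uninduced. In both genes the induced arrays spanned the fresh level and the uninduced arrays lay below it, as for Pax8. Upp1, a uridine phosphorylase gene, was by contrast at 6.05 and 6.07 fresh, 6.33 and 6.42 uninduced and 8.12 to 10.05 (median 9.04) induced, above both.

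The genes furthest below uninduced culture by measured difference included Foxp2 (-2.85, floored -2.66, SE 0.47, adjusted p = 0.00079), Capn6 (-2.57) and Bnc2 (-2.40). Sema3d (-2.70, floored -1.41) and Khdrbs2 (-2.50, floored -0.79) were also chosen by that difference, but their induced level was at background. Klhl4 (-2.47, floored -1.92) was chosen likewise. Like Foxp2, its mean was under the threshold with LIF and ANX only, and its NGAL arrays were at 5.88 and 6.35. The 6 genes therefore have no order among them. Bnc2, a zinc finger factor gene of mesenchyme, and Capn6, a calpain family gene, were at 9.77 and 8.33 and at 9.67 and 8.93 in uninduced culture. The induced arrays were at 5.92 to 8.0 and 6.02 to 7.67, with NGAL highest in both, and neither gene was called against fresh tissue (-0.85, adjusted p = 0.391; -1.76, adjusted p = 0.0732). Capn6 was called against fresh under 4 alternatives: array weights, only the arrays compared, the replicate block and the dap ratio as covariate. In the renal stroma list 6 of 23 members were lower than in uninduced culture and 0 higher, beside 5.27% and 4.04% of all genes, with a median of -0.76. Slc40a1 was also lower, by 2.08 (adjusted p = 0.00131).

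The uninduced pair limits these calls. Uninduced replicate 1 stood apart from the other day 0 and day 1 arrays, with a dap 3'/5' ratio of 1.97 and a 5S ribosomal RNA level of 8.67 (7.56 on replicate 2, 6.85 to 7.10 on the induced arrays). The count was 62 without it and 644 without uninduced replicate 2, and it was 588 without ANX replicate 1, 703 without LIF replicate 1 and 673 without NGAL replicate 2; with the dap ratio as a covariate it was 1266. Of 60 genes named here that were called against uninduced culture, 48 lost the call without uninduced replicate 1 and 24 without replicate 2. Those called under every alternative run were 9: Hs3st1, Ier3, C1qtnf12, Upp1, Dio3, Ostf1, Nptx1, Khdrbs2 and Slc40a1.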

How the data were processed

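Total RNA from fresh or cultured mesenchyme was hybridised to 42 Affymetrix arrays; the labels give 21 groups, each with 2 biological replicates. The deposited values are intensities that the authors made by RMA, per the series' design text and the submitters' processing notes; they run from 7.6 to 17972 with array medians of 83.3 to 88.4, and their log2 was taken here. Scanner files were not used here, and the number of arrays limits the precision.

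Of 31099 probe sets 20832 had 1 gene symbol, 436 several and 9831 none; symbols of 20764 were updated through RefSeq. Each gene was read from its probe set with the highest mean over all arrays. Genes whose highest group mean passed the 40th percentile were fitted with limma 3.58.1 in R 4.3.3, as group means over all 42 arrays (21 residual degrees of freedom) with a variance trend and Benjamini-Hochberg adjustment. The fit was tested on simulated data. The inducers were compared with an F-test.

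The genes named are the 12 largest rises and 12 largest falls without overlap, the 6 largest each way against uninduced culture, the 10 smallest F-test p-values, up to 6 called members of each list by adjusted p, and a set of anchor genes; other members named were chosen after their values were seen. The comparison, lists and members were chosen with earlier results of these data known. Alternatives were other filters, quantile normalization again, other probe set rules, a least change of 2-fold, limma's array weights, leaving the trend out, a fit of the compared arrays alone, the replicate number as a block, the dap spike-in 3'/5' ratio as covariate, 2 of the 3 inducers, and each array left out.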

Additional observations from a re-analysis of the deposited data

Results flagged for a closer look

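In 7 genes the effect of 1 day of culture differed between the 3 inducers by limma's F-test, with adjusted p-values of 0.00391 for Tspan5, 0.00391 for Ostf1, 0.00504 for Nptx1, 0.0141 for Bcl3, 0.0164 for Igtp, 0.046 for Cxcl1 and 0.046 for Tnfrsf26. LIF exceeded NGAL by 1.45 on the log2 scale for Tspan5, 1.60 for Ostf1, 2.43 for Bcl3, 1.42 for Igtp and 0.99 for Tnfrsf26 (floored 0.19), and was below it for Nptx1 (-1.74, floored -0.62). For Cxcl1 the ANX arrays stood 3.34 above the NGAL arrays (floored 2.64). Without NGAL replicate 1 the F-test called 0 genes, without LIF replicate 2 it called 2, and without ANX replicate 1 it called 11. No group of the comparison has more than 2 arrays, so single arrays that stand apart from their group were not searched for.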

How the results depend on the processing

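The count of 1668 genes that differed from fresh tissue was 3762 with array weights, 438 with a 2-fold minimum and 565 to 1613 with 1 array left out. The count of 492 genes called for each inducer was 1132 with array weights, 230 with a 2-fold minimum and 161 to 396 with 1 array left out. The 7 genes of the F-test became 16 with array weights, 11 with no filter, 29 with only the arrays compared, 11 with the spike-in ratio as covariate and 0 to 11 with 1 array left out. The 1060 genes that differed from uninduced culture became 227 with a 2-fold minimum and 62 to 1031 with 1 array left out. The 165 called list members became 93 to 98 without a fresh array. The cause of these shifts was not tested, apart from the smaller number of arrays and the added size limit. A fit without 1 array of a pair assumes that the lone array varies like the other groups.

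Replicate numbers gave no uniform pairing: the correlation of same-numbered deviations ran from -0.38 to 0.47 over 10 pairs of groups, and 2 of them passed 0.1. These were LIF with ANX (0.47) and NGAL with uninduced culture (0.46), and LIF with uninduced culture was at -0.38. Some groups thus shared deviations, while the main fit takes all arrays as independent. The cause was not tested. With the replicate block the counts were 1949, 607, 8 and 1354.

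No called value of a named gene changed sign. Uncalled values near 0 did. Gdnf, Socs3, Capn6 and Cxcl1, not called against fresh tissue, were called under 2 to 4 alternatives. With 1 array left out, Egr1 ranged from -0.222 to 0.185, Sall1 from -0.052 to 0.082, Wnt4 against fresh from -0.171 to 0.176, Lcn2 from -0.016 to 0.25 and Cdh1 from -0.053 to 0.04. After quantile normalization Sall1 was at -0.051, Wnt4 at -0.043 and Cdh1 at 0.031. Wnt4 was at -0.038 with the covariate, and Cdh1 at 0.016 over the mean of probe sets. Some list medians moved without a change of sign. Under the stricter filter the interferon median was 1.994 (main 0.685) and the LIF and STAT3 median 1.731 (main 1.031). The neuron and Schwann cell median was 0.861 (main 0.048) and the cartilage median -0.695 (main -0.076), while that of cholesterol synthesis stayed at 1.198. List medians close to 0 (at most 0.076 in size) changed sign 14 times in 9 lists over the alternatives run. The shift exceeded the mean SD between duplicates of the list's level in 3 of these, all in lists with a called member: iron handling (0.12) and ureteric bud (0.13) under the stricter filter, and cartilage, at -0.165 and 0.014 with 1 fresh array left out.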

Other observations

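The 30 induced arrays of days 2 to 7 show where the genes of the first day stood later, as values with no test. Mgp was at 10.94 to 13.87 (median 12.48), S100a6 at 9.40 to 12.80 (median 10.66) and Ifitm1 at 9.31 to 12.88 (median 11.19), near or above their levels of day 1. Tnfaip6 was at 4.38 to 8.98 with a median of 5.28, below its day 1 median of 8.87, and Dkk2 at 3.72 to 9.12 with a median of 6.18 against 8.32.

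Among the genes that fell, Fosb remained near background at 3.94 to 5.01 (median 4.6). Hbg1 was at 4.32 to 9.19 (median 4.80), against a day 1 median of 9.75, and Rarb at 5.22 to 7.91 (median 5.96). Ccnd1 covered 4.94 to 11.62 with a median of 9.08, close to the 9.47 and 9.40 of fresh tissue, and Ccn2 4.73 to 12.52 with a median of 6.66. Bnc2, at 5.49 to 10.58 (median 7.75), spanned the fresh level of 7.64 and 7.36.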
